A study of Mus musculus with 25 samples.

Results

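The arginine and nitric oxide genes described here are Nos2, Arg1, Arg2, Slc7a2, Ass1, Asl, Odc1 and Gch1. These 8 genes were picked by name out of the 24411 gene symbols in the count files, 7 of them had counts, and Ass1 was listed at 0 throughout. RNA-seq was performed on 25 macrophage samples in 9 conditions. Bone marrow-derived macrophages (BMDMs) were grown from C57BL/6 mice with 25 ng/ml M-CSF for 4 days and form 7 groups of 3. These are control BMDMs cultured for 4 h, IFN-γ-primed LPS-stimulated BMDMs (IFN-γ at 100 U/ml, LPS at 100 ng/ml, harvested at 1, 4, 12 or 24 h), and BMDMs treated for 12 h with 10 ng/ml of IL-4 or of IL-13. RAW264.7 macrophages, a mouse line made from BALB/c animals infected with Abelson leukemia virus, form 2 groups of 2, a control cultured for 4 h and cells given 100 ng/ml LPS alone for 4 h. The RAW264.7 cells were kept in another medium and received no IFN-γ. The labels give neither age nor sex of the mice.

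Arginine enters macrophages through cationic amino acid transporters and is then used by competing enzymes. The inducible nitric oxide synthase makes nitric oxide and citrulline from it and needs tetrahydrobiopterin as a cofactor, whereas arginases split it into urea and ornithine, from which polyamines and proline are made. Citrulline can be turned back into arginine by argininosuccinate synthase and lyase. Macrophages given IFN-γ and LPS are the textbook example of the nitric oxide branch, and those given IL-4 or IL-13 of the arginase branch.

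On GRCm38 (mm10), with GENCODE M21, the transporter gene Slc7a2 lies at chr8:40862396-40922308 on the plus strand and Nos2 at chr11:78920787-78960254 on the plus strand. Gch1 lies at chr14:47153895-47189413 on the minus strand, Arg1 at chr10:24915221-24927484 on the minus strand and Arg2 at chr12:79130777-79156301 on the plus strand. Ass1 lies at chr2:31470207-31520672 on the plus strand, Asl at chr5:130011258-130029247 on the minus strand and Odc1 at chr12:17544794-17551505 on the plus strand. All values are counts over whole genes, exons pooled. No stretch of 50 bases in the transcripts of Nos2, Arg1 or Asl recurred in a transcript of another gene. Such stretches made up 38.6% of Ass1, all of them shared with the processed pseudogene Gm5424, and 24.3% of Odc1, which shares them with processed pseudogenes such as Gm7993 and Gm17709. For Arg2 they made up 21.2%, mostly with Vti1b on the opposite strand, and for Slc7a2 6.42%, mostly with Gm26584 on the opposite strand. Reads from stretches shared on the same strand cannot be assigned with certainty, so the Odc1 values in particular may hold or lack reads of its copies. The sense counts used here leave out reads of the opposite strand, where most of the Arg2 and Slc7a2 stretches are shared.

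Of the 3 members with a promoter entry, Odc1 and Gch1 are shown because their responses at 4 h differed between the cell types. Both genes rose in both cell types, Odc1 more in RAW264.7 and Gch1 more in BMDMs. Each line is the 250 bases before the transcription start in RefSeq (GRCm38.p6), at chr12:17544623-17544872 on the plus strand and at chr14:47189414-47189663 on the minus strand, in lower case throughout because no motif searched was found in either.
Odc1: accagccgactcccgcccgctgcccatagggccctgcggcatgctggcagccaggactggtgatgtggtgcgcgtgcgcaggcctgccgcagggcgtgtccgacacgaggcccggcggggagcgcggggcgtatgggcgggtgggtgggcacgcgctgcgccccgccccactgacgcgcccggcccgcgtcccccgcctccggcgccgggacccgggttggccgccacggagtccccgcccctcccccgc
Gch1: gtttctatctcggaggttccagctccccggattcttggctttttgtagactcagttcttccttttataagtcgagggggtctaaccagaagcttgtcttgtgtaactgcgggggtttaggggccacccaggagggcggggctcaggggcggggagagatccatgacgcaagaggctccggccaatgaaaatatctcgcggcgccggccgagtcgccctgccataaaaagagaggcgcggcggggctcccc
The letters searched on both strands were GAS (TTCNNNGAA, present in 7.02% of 32851 promoters of this length), a STAT6-type site (TTC and GAA with 4 bases between, 5.85%), ISRE (GAAA and GAAA with 2 bases between, 2.98%), a κB-type site (GGGA and CC with 4 bases between, 17.6%), AP-1 (TGANTCA, 6.75%) and an E-box (CACGTG, 6.02%). GAS and the STAT6-type pattern differ only in the gap, and matches of different motifs may overlap. G and C made up 80.0% of the Odc1 and 59.2% of the Gch1 stretch. The Ass1 promoter, at chr2:31470020-31470269 on the plus strand, held 1 κB-type match and 1 E-box. The absence of these letters from a window says nothing about the factors. The promoter set used here held entries for 3 of the 8 genes only, so Nos2, Arg1, Arg2, Slc7a2 and Asl are named only.

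Levels are given as CPM, the counts per 1000000 sense-strand counts on genes without the ribosomal precursor Rn45s, which took 20.1% to 39.8% of the counts and left 1502618 to 2532496 per library. Fold changes are from edgeR's quasi-likelihood test with TMM scaling. A difference passed the test at a false discovery rate (FDR) of at most 0.01 over all genes tested, and a gene was called when its log2 fold change was also at least 1.5 in either direction for IFN-γ and LPS, 0.7 for IL-4 and IL-13, or 2 for comparisons with RAW264.7. Scaling by the library total alone moved the median log2 fold change of all genes to -0.22, -0.61, -0.34 and -0.20 at 1, 4, 12 and 24 h of IFN-γ and LPS, to -0.18 for LPS in RAW264.7 and to 0.63 between the stimulated cell types at 4 h, so small changes are relative to that choice. The 8 macrophage markers found of a list of 9 names summed to between 16052 and 30855 CPM in BMDMs, lowest at 4 h and highest at 24 h, and to between 11229 and 11975 CPM in RAW264.7, where Mertk was at 0. Of markers of other cells, the summed stromal collagens and decorin reached 46.8 to 116 CPM in BMDMs and were at 0 in RAW264.7, neutrophil markers reached at most 40.9 CPM, and T cell, B cell, dendritic cell, mast cell and erythroid lists stayed at or under 14.1 CPM. Libraries of the 24 h, IL-4 and IL-13 groups carried a lower share of antisense counts at Rn45s (0.00603% to 0.0214%) than the other BMDM libraries (0.0386% to 0.122%). This difference cannot be told apart from those treatments against the control. The same holds for 24 h against 12 h of IFN-γ and LPS, and for IFN-γ and LPS against IL-4 or IL-13 at 12 h. The only BMDM control was cultured for 4 h, so in comparisons of 12 or 24 h groups with it, treatment and hours in culture cannot be told apart. Hours of IFN-γ and LPS are those of the labels, and the length of the IFN-γ priming is not given. No group received IFN-γ alone, so priming and LPS cannot be told apart against the control, at 1 h included. Fewer cells of a type and less RNA per cell cannot be told apart in these bulk samples.

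Slc7a2 encodes the cationic amino acid transporter CAT2, which brings arginine into activated macrophages, and was the member with the most counts in stimulated BMDMs. It stood at 15.5, 17.3 and 20.4 CPM in the 3 control libraries, and at 128.6, 130.5 and 129.9 CPM after 1 h of IFN-γ and LPS. At 4 h it was at 1706, 1652 and 1754 CPM, at 12 h at 3619, 3762 and 3617 CPM, and at 24 h at 2639.9, 2691 and 2707 CPM. The 5 groups did not overlap, and the libraries of a group lay close together. Against the control the mean level was 7.32, 96.1, 207 and 151 times as high at 1, 4, 12 and 24 h. The fitted log2 fold changes were 3.05 ± 0.13 (SE, FDR 8.41e-25), 7.11 ± 0.12 (8.41e-42), 7.99 ± 0.12 (5.18e-43) and 7.46 ± 0.12 (8.39e-42). Each step in time also passed the test, with a log2 fold change of 4.05 ± 0.09 from 1 to 4 h, 0.89 ± 0.08 from 4 to 12 h (FDR 2.98e-13) and -0.54 ± 0.08 from 12 to 24 h (FDR 5.26e-07), but the last pair stayed under the cutoff of 1.5.

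Slc7a2 rose with IL-4 and IL-13 as well. It was at 193, 218 and 203 CPM in the IL-4 libraries and at 278, 337 and 353 CPM in the IL-13 libraries, all above the control and far below 4 h of IFN-γ and LPS. The mean was 11.6 and 18.3 times that of the control, with log2 fold changes of 3.52 ± 0.14 (FDR 1.25e-26) and 4.14 ± 0.14 (8.23e-31). Every IL-13 library lay above every IL-4 library, and that difference, a log2 fold change of 0.62 ± 0.10, passed the test (FDR 1.25e-04) without reaching 0.7. Leaving out IL-13 replicate 1 raised it to 0.72 and past the cutoff. As a share of all member counts, Slc7a2 ranged in the control from 11.1% to 15.6%, in the IL-4 libraries from 55.1% to 57.5%, in the IL-13 libraries from 62.4% to 68.2%, and after 12 h of IFN-γ and LPS from 84.5% to 85.4%.

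**Figure D1:**
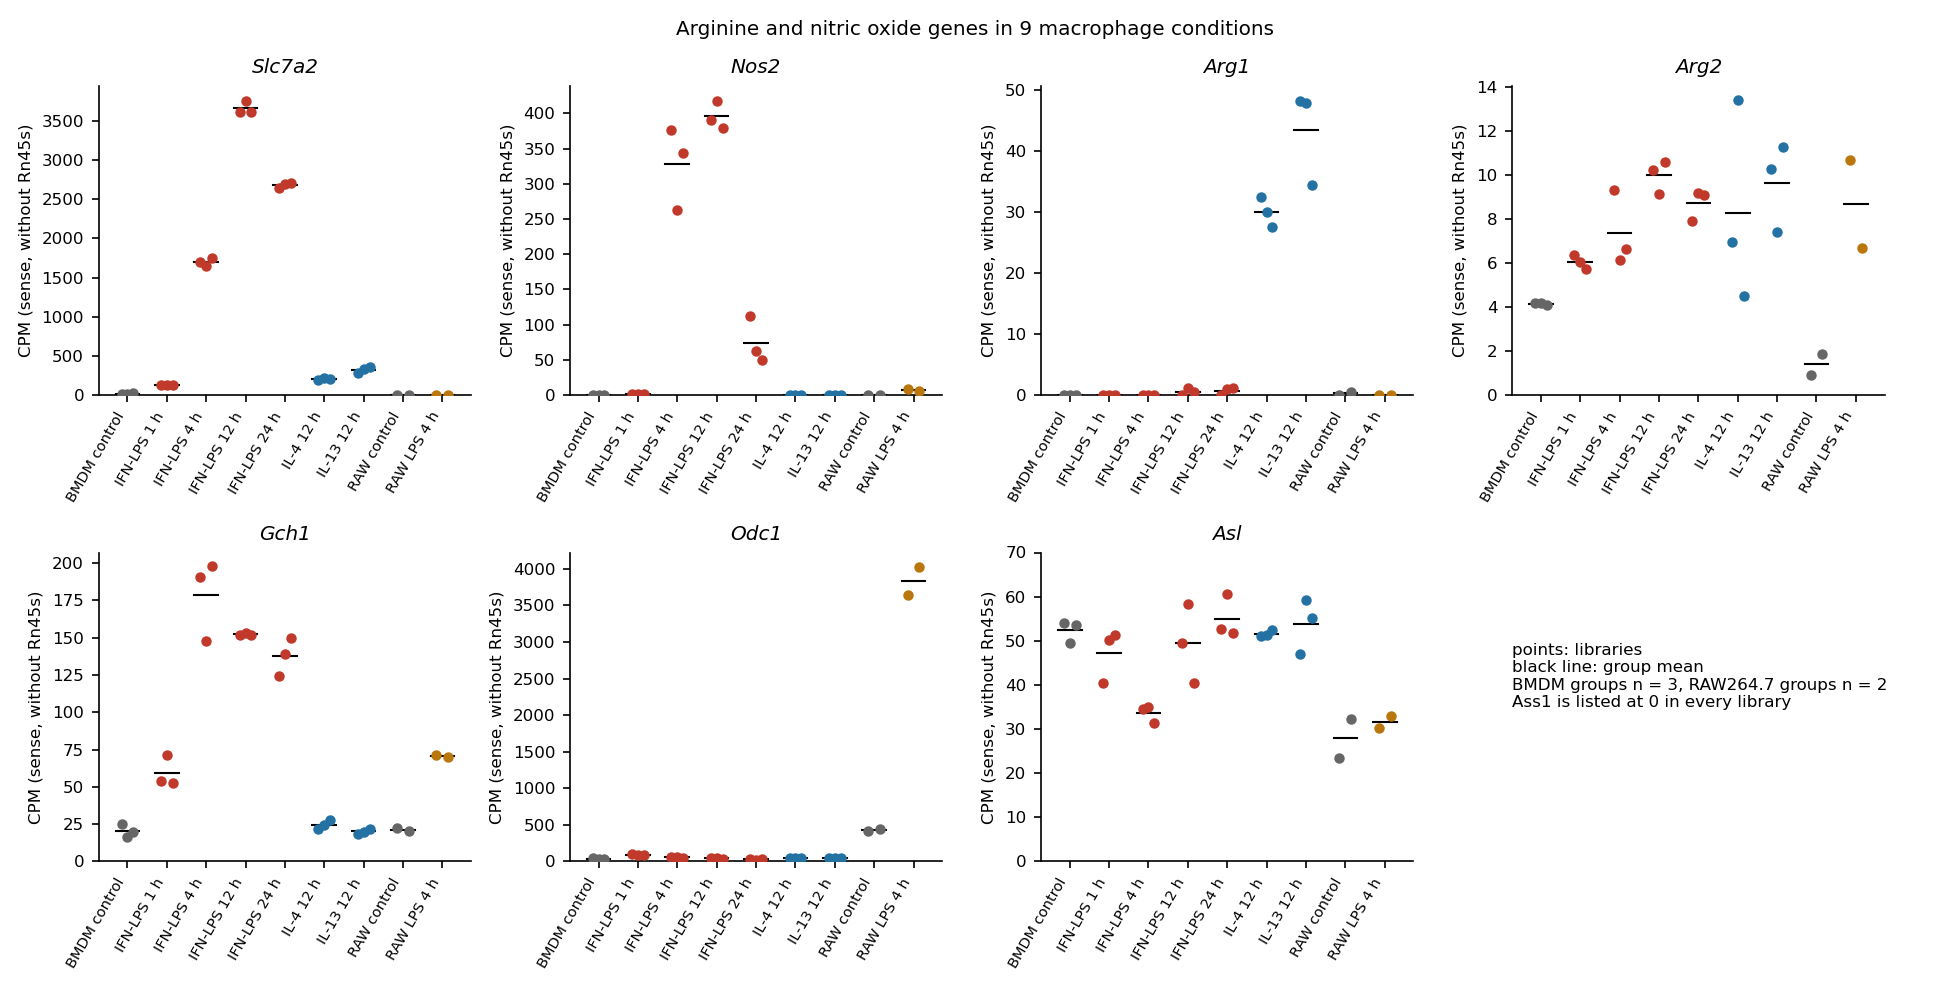
Levels of the 7 genes with counts in 9 conditions (CPM on the sense strand without Rn45s, linear axis from 0, 1 panel per gene). Points are libraries and lines are group means (n = 3 in BMDMs, n = 2 in RAW264.7). Slc7a2 and Nos2 stand highest at 12 h of IFN-γ and LPS (means of 3666 and 396 CPM), Arg1 is seen with IL-4 and IL-13, and Odc1 is highest in RAW264.7.

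Nos2 encodes the inducible nitric oxide synthase. No count fell on it in the 3 control libraries, and 2, 1 and 3 counts were seen at 1 h. At 4 h it was at 376, 263 and 344 CPM, at 12 h at 391, 418 and 379 CPM, and at 24 h at 112, 62.1 and 49.0 CPM. All 9 libraries from 4 h on were far above the control, the 4 h and 12 h libraries formed neighbouring groups, and the 24 h libraries lay below both. With a floor of 3 counts over the control group, the rise was at least 549-fold at 4 h, at least 668-fold at 12 h and at least 123-fold at 24 h. The fitted log2 fold changes, which depend on the prior count, were 12.56 ± 0.68 (FDR 3.95e-08), 12.61 ± 0.67 (3.75e-08) and 10.10 ± 0.93 (4.61e-06). The last call was lost when only the groups compared were fitted (10.28, FDR 0.0293). At 1 h the difference did not pass (4.05 ± 2.78, FDR 0.301).

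The rise from 1 to 4 h was 305-fold (log2 8.51 ± 0.47). Nos2 at 12 h against 4 h had a log2 fold change of 0.06 ± 0.21 and did not pass (FDR 0.849). From 12 to 24 h it fell to 0.184 of its level, with a log2 fold change of -2.51 ± 0.24 (FDR 2.68e-05), the only member called between those times. Over the same hours Slc7a2 fell to 0.732 of its level and the mean of Gch1 stood at 0.910 of its level. Expressed per kilobase of exons, so that genes can be set side by side, Slc7a2 stood at 401 and Nos2 at 89.8 CPM per kb at 12 h, followed by Gch1 at 24.3, Odc1 at 13.4, Asl at 10.2, Arg2 at 6.99 and Arg1 at 0.24 CPM per kb.

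Gch1 encodes GTP cyclohydrolase, the entry enzyme of tetrahydrobiopterin synthesis. Its level was 25.0, 16.7 and 19.8 CPM in the control, 54.2, 71.3 and 52.8 CPM at 1 h, 190.3, 148 and 198 CPM at 4 h, 152, 153 and 152 CPM at 12 h, and 124, 139 and 149.7 CPM at 24 h. Every stimulated library was above every control library, and the 4 h and 12 h groups overlapped. Gch1 was upregulated at all 4 times, with log2 fold changes of 1.71 ± 0.17 (FDR 1.30e-11), 3.64 ± 0.15 (4.91e-26), 3.20 ± 0.15 (1.43e-23) and 2.97 ± 0.15 (2.98e-22). It therefore was already called at 1 h, when Nos2 had only 6 counts over 3 libraries. The step from 1 to 4 h was 1.93 ± 0.13 on the log2 scale. The lower value at 12 h than at 4 h passed the test with TMM scaling (-0.45 ± 0.11, FDR 0.00103) and not with the library total (-0.23, FDR 0.0929). With IL-4, Gch1 was at 22.0, 24.4 and 27.5 CPM, and with IL-13 at 18.6, 19.9 and 22.0 CPM. Both ranges overlapped the control and neither passed the test.

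Arg1, the cytosolic arginase of alternatively activated macrophages, showed the opposite distribution. It had no count in the control, 1 h and 4 h libraries, 0, 2 and 1 counts at 12 h and 0, 2 and 3 counts at 24 h. With IL-4 it was at 32.4, 29.9 and 27.5 CPM, and with IL-13 at 48.2, 47.9 and 34.3 CPM. All 6 libraries of these cytokines were above all others, and the IL-13 libraries above the IL-4 libraries. The rise over the control was at least 50.8-fold with IL-4 (fitted log2 8.67 ± 0.62, FDR 4.30e-16) and at least 73.2-fold with IL-13 (9.16 ± 0.56, FDR 5.33e-19). IL-13 against IL-4 gave a ratio of 1.44 and a log2 fold change of 0.49 ± 0.17, which did not pass (FDR 0.425). In the time course Arg1 was too low to be tested.

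Arg2, the mitochondrial arginase, was low everywhere, with 7 counts in each control library. It was at 4.16, 4.17 and 4.07 CPM in the control, at 6.38, 6.04 and 5.71 CPM at 1 h, at 9.32, 6.12 and 6.62 CPM at 4 h, at 10.2, 9.14 and 10.6 CPM at 12 h and at 7.91, 9.20 and 9.08 CPM at 24 h. Every stimulated library was above every control library. Its log2 fold change passed the test at 4 h (1.32 ± 0.37, FDR 0.00174), 12 h (1.57 ± 0.33, FDR 7.42e-05) and 24 h (1.29 ± 0.33, FDR 9.49e-04), and reached 1.5 only at 12 h. The 12 h call was lost with the library total (1.26) and with unstranded counts (1.35), and the 4 h difference did not pass with the library total (0.80 ± 0.37, FDR 0.0517). With IL-4 it was at 6.95, 13.4 and 4.48 CPM and with IL-13 at 10.3, 7.41 and 11.3 CPM, and neither difference passed (FDR 0.106 and 0.0325). The IL-4 libraries spread over most of the range of all BMDM groups.

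**Figure D2:**
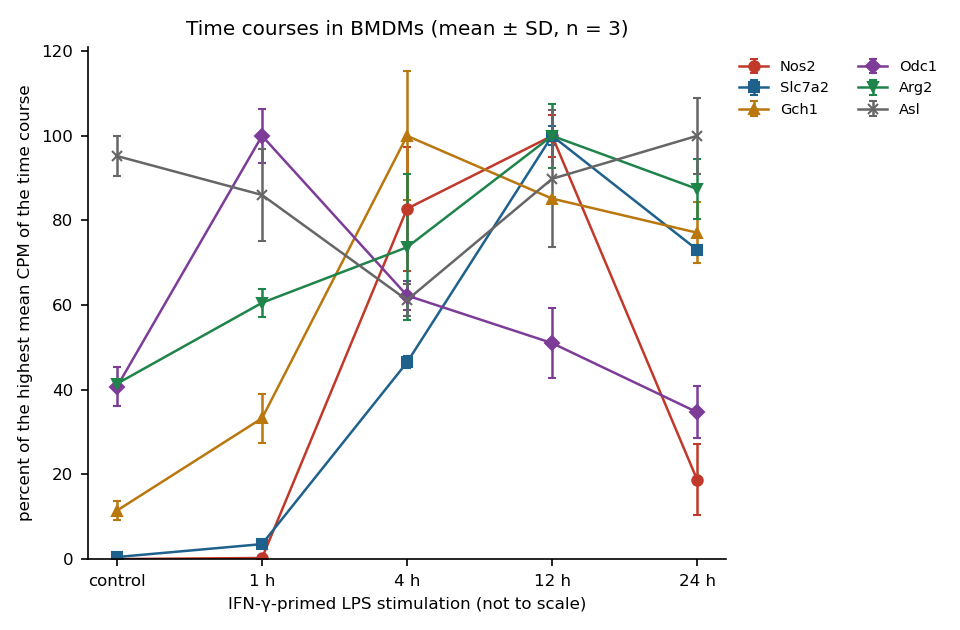
Mean level of 6 genes in control BMDMs and after 1, 4, 12 and 24 h of IFN-γ and LPS, as percent of each gene's own highest mean in the time course (points are means, bars are SD, n = 3, and the spacing of times is not to scale). In these means of plain CPM, Odc1 peaks at 1 h, Gch1 at 4 h, and Slc7a2, Nos2 and Arg2 at 12 h. Nos2 is back at 18.7% of its peak at 24 h while Slc7a2 is at 73.1%.

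Of the recycling enzymes, Ass1, the argininosuccinate synthase, was listed at 0 in the sense, antisense and unstranded columns of all 25 libraries. Its pseudogene Gm5424 was listed at 0 too, as was Oaz1, the ornithine decarboxylase antizyme that most cells use, on its sense strand. In all, 7249 symbols were at 0 in every library and column, so nothing is read from the value of Ass1. Asl, the argininosuccinate lyase, was at 54.1, 49.5 and 53.6 CPM in the control, 40.4, 50.2 and 51.4 CPM at 1 h, 34.6, 35.1 and 31.3 CPM at 4 h, 49.6, 58.2 and 40.4 CPM at 12 h and 52.6, 60.7 and 51.7 CPM at 24 h. With TMM scaling it passed no test against the control in BMDMs. The 4 h libraries were the lowest of the BMDMs, at 0.643 of the control mean. Whether that difference passed the FDR depended on scaling, with a log2 fold change of -0.11 ± 0.16 by TMM (FDR 0.564) and -0.64 ± 0.16 by the library total (FDR 4.51e-04), and neither reached the fold cutoff. With IL-4 Asl was at 51.0 to 52.5 CPM and with IL-13 at 46.9 to 59.2 CPM.

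Odc1 encodes ornithine decarboxylase, the first enzyme of polyamine synthesis. It was at 41.0, 35.2 and 33.2 CPM in control BMDMs and at 94.6, 90.6 and 83.3 CPM at 1 h, its highest BMDM level. Afterwards it was at 55.2, 59.0 and 53.0 CPM at 4 h, at 47.5, 52.0 and 37.5 CPM at 12 h and at 30.7, 25.7 and 36.7 CPM at 24 h. In plain CPM the 1 h libraries stood apart from all other BMDM libraries, and the 12 h and 24 h ranges overlapped the control. Odc1 passed the test at 1 h (log2 fold change of 1.48 ± 0.14, FDR 2.57e-12) just short of the cutoff of 1.5, which it passed without control replicate 1 (1.57) or without 1 h replicate 3 (1.55). It still passed at 4 h (1.14 ± 0.15, FDR 1.23e-08) and 12 h (0.62 ± 0.16, FDR 6.30e-04), though at 12 h not with the library total (0.31, FDR 0.0832). At 24 h the log2 fold change was 0.00 ± 0.16 by TMM and -0.22 by the library total. The step from 1 to 4 h did not pass with TMM scaling (-0.34 ± 0.13, FDR 0.0310) and passed with the library total (-0.68, FDR 3.33e-05). The steps from 4 to 12 h (-0.52 ± 0.15, FDR 0.0030) and from 12 to 24 h (-0.62 ± 0.15, FDR 0.00166) passed. Of these 2 steps, the earlier passed only with TMM scaling (FDR 0.0928 with the library total). With IL-4 and IL-13, Odc1 was at 41.6 to 45.2 CPM and 41.7 to 44.4 CPM and did not pass.

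Counted together, 2 of the 6 members tested were called at 1 h, where 7.12% of all 9568 genes tested were called. At 4 h it was 3 of 6 (22.8% of all genes), or 5 of 6 by the FDR alone (51.5%), at 12 h 4 of 6 (17.3%) and at 24 h 3 of 6 (14.9%), all of them higher. For the steps it was 3 of 6 from 1 to 4 h (14.0%), 0 of 6 from 4 to 12 h (9.66%), where edgeR gave 4 members an unadjusted p under 0.05, 3 of them passed the FDR alone (35.9% of all genes), and DESeq2 called 0. It was 1 of 6 from 12 to 24 h (1.29%), Nos2, which was lower, and 3 of 6 by the FDR alone (14.2%). With IL-4 2 of 6 were called (3.86%) and with IL-13 2 of 6 (5.36%), Arg1 and Slc7a2 in each case. Between IL-13 and IL-4, 0 of 6 were called by edgeR (0.0649%) and 0 by DESeq2, while Slc7a2 and Arg1 had an unadjusted p under 0.05 and Slc7a2 passed the FDR alone (0.108%).

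**Figure D3:**
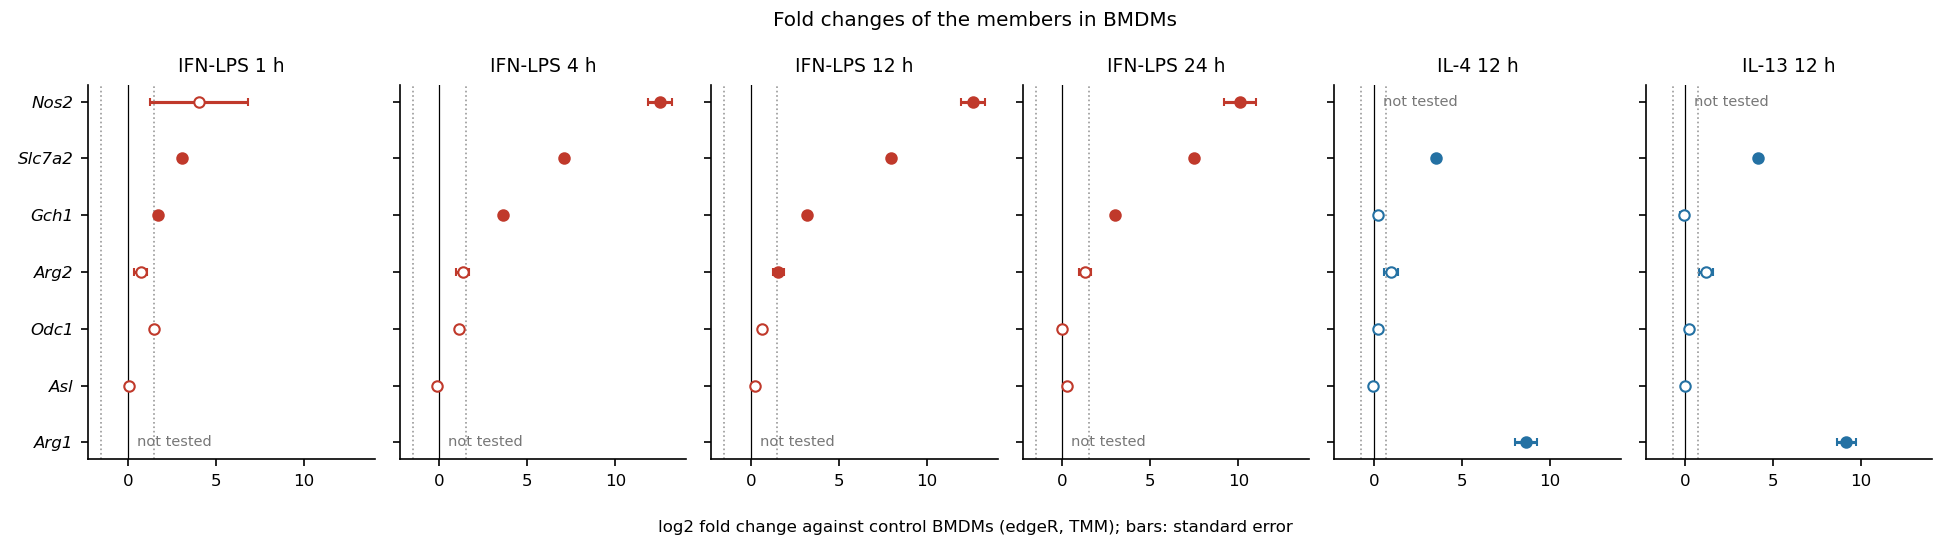
Log2 fold changes against control BMDMs for each treatment (points from edgeR with TMM scaling, bars are the standard error, filled points were called, dotted lines mark the fold cutoffs of 1.5 or 0.7). Slc7a2 is the gene called in all 6 panels, Nos2 and Gch1 lie to the right with IFN-γ and LPS, and Arg1 with IL-4 and IL-13. Genes with too few counts are marked as not tested.

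At the matched time of 12 h, IFN-γ and LPS was compared with IL-4 and IL-13 directly, which contrasts the nitric oxide branch with the arginase branch. Nos2 was at least 649-fold higher than with IL-4 and at least 670-fold higher than with IL-13, where all 6 libraries had no count. Arg1 was at 0.0173 of its IL-4 level (95% counting interval of 0.00352 to 0.0514) and at 0.0120 of its IL-13 level (0.00245 to 0.0355), with 3 counts over the 3 libraries of 12 h. The fitted log2 fold changes of Arg1 were -5.35 ± 0.46 (FDR 4.37e-15) and -5.85 ± 0.42 (FDR 6.34e-18). Slc7a2, raised by both kinds of stimulus, was 17.9 and 11.3 times as high with IFN-γ and LPS (log2 4.51 ± 0.10 and 3.88 ± 0.10), and Gch1 6.19 and 7.51 times as high (2.98 ± 0.15 and 3.28 ± 0.15). Arg2 and Asl did not pass either comparison. Odc1 passed only against IL-13 with TMM scaling (0.44 ± 0.15, FDR 0.00957), and not with the library total (0.069). In each comparison 4 of 7 members tested were called (Nos2, Slc7a2, Gch1 and Arg1), where 16.5% of all genes were called.

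Within each library, the log2 ratio of Nos2 to Arg1 counts, each with 0.5 added, uses no scaling between libraries. Arg1 had no count at 4 h or with LPS in RAW264.7, and Nos2 had none with IL-4 or IL-13. The values of those groups therefore depend on the 0.5 added and on the depth of the library. At 4 h the ratio ranged from 9.89 to 10.2, by 12 h from 8.19 to 10.6 and by 24 h from 5.15 to 8.91. Replicate 1 at 12 h and replicate 1 at 24 h had no Arg1 count either and gave the top of each range. The other libraries of these times had at most 3 Arg1 counts, so their ratios are rough. In the IL-4 libraries the ratio ranged from -6.82 to -6.44, and in the IL-13 libraries from -7.40 to -6.94. The 2 kinds of stimulus lay on opposite sides of 0 in every library from 4 h on. In RAW264.7 with LPS it was 4.95 and 5.21.

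In RAW264.7 macrophages, Odc1 was the dominant member. Control RAW264.7 cells were at 417 and 446 CPM and LPS-stimulated cells at 3636 and 4023 CPM, so that the groups lay far apart and every RAW264.7 library was above every BMDM library. LPS raised Odc1 8.90-fold, with a log2 fold change of 3.33 ± 0.07 and an FDR below the cutoff. Odc1 made up 89.1% to 97.1% of all member counts in RAW264.7 and, per kilobase of exons, stood at 127 CPM per kb in the control and 1125 CPM per kb with LPS. Against control BMDMs it was 11.8 times as high (log2 3.31 ± 0.12, FDR 4.32e-37) and, at 4 h of the different stimuli, 68.8 times as high (5.40 ± 0.11, FDR 1.43e-52).

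Nos2 had 1 and 0 counts in RAW264.7 controls and 18 and 15 counts with LPS. The ratio was 31.3, with an exact 95% counting interval of 5.25 to 1275, and the log2 fold change was 4.83 ± 0.77 (FDR 5.24e-09). Arg2 went from 2 and 4 counts to 23 and 16 counts, or 6.17-fold (2.75 ± 0.52, FDR 1.28e-06). Gch1 was at 22.5 and 20.1 CPM and with LPS at 71.5 and 70.2 CPM (1.91 ± 0.17, FDR 1.09e-26), which passed the test but stayed under the cutoff of 2. Asl was at 23.4 and 32.3 CPM and with LPS at 30.2 and 33.0 CPM and did not pass (0.37 ± 0.19, FDR 0.123). Slc7a2 had no count in the controls and 6 counts in each LPS library, at least 3.80-fold higher, and Arg1 had 1 count over all 4 libraries. Of 5 members tested, 3 were called (Odc1, Nos2 and Arg2), where 3.22% of all genes were called. The Nos2 call was lost with DESeq2 (5.16, FDR 0.01003), and its log2 fold change moved to 7.08 without RAW264.7 control replicate 1, which held the single control count, and to 4.01 without control replicate 2. With 2 libraries per group, these errors were borrowed largely from all genes.

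**Figure D4:**
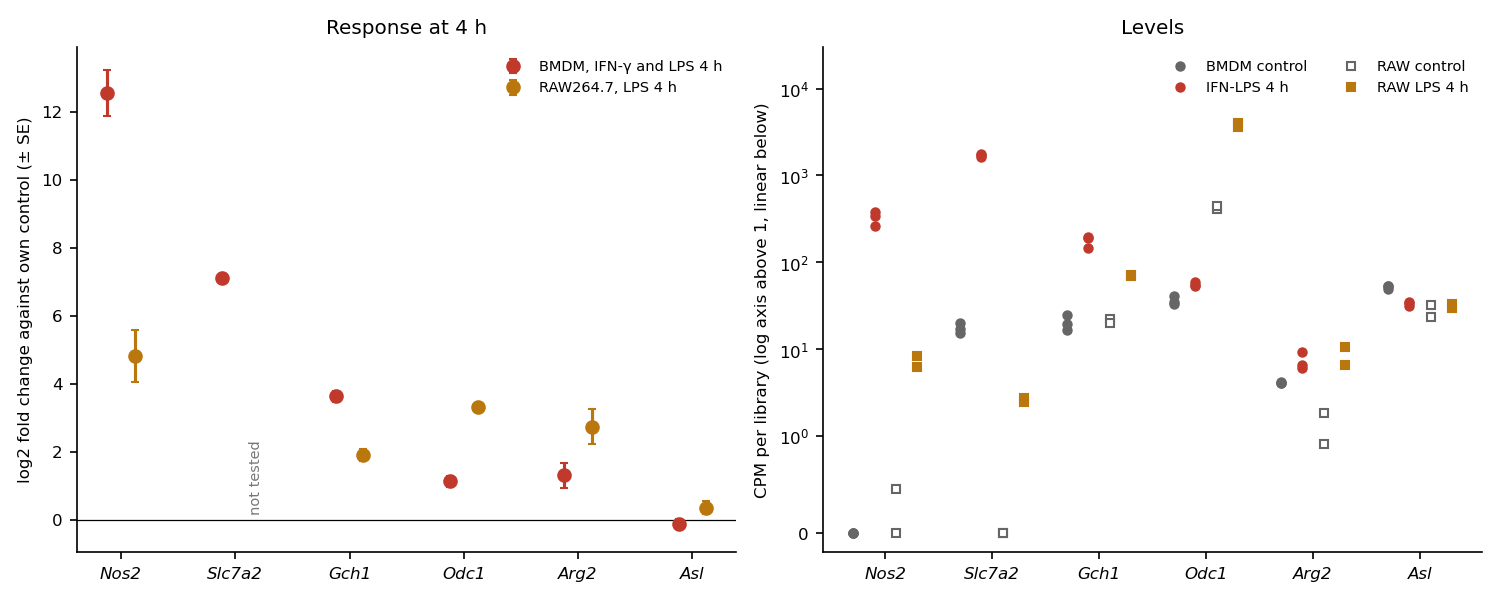
Left, log2 fold changes at 4 h against each cell type's own control (points from edgeR, bars are the standard error), for IFN-γ and LPS in BMDMs and LPS in RAW264.7. Right, CPM in each library of the 4 groups, on an axis that is logarithmic above 1 and linear below. Odc1 is at 417 to 4023 CPM in RAW264.7 and at 33.2 to 59.0 CPM in these BMDM groups, while Slc7a2 and Nos2 are at 1652 to 1754 and 263 to 376 CPM in stimulated BMDMs and at most 8.36 CPM in RAW264.7.

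The remaining members were lower or alike in RAW264.7. Slc7a2 was at least 25.5-fold lower in RAW264.7 controls than in BMDM controls, and stood at 0.00155 of the BMDM level at 4 h (log2 -9.99 ± 0.18). Nos2 stood at 0.0224 of the BMDM level at 4 h (-6.17 ± 0.36, FDR 2.76e-09). Gch1 had much the same mean in both controls (21.3 ± 1.67 CPM, SD, n = 2, and 20.5 ± 4.19 CPM, SD, n = 3, FDR 0.432), and at 4 h stood at 0.399 of the BMDM level (-2.02 ± 0.13, FDR 7.08e-23). That call rested on a fold close to 2 and was lost without BMDM 4 h replicate 3 (-1.96) or RAW264.7 LPS replicate 2 (-1.98). It was also lost with DESeq2 or RLE scaling (-1.97), with Rn45s kept (-1.96), with only the groups compared (-1.96) and with the replicate block (-1.98), and the library total gave -1.33. Asl passed the test in the controls (-1.16 ± 0.17, FDR 1.68e-08) and at 4 h (-0.78 ± 0.18, FDR 1.13e-04), the latter not with the library total (-0.087, FDR 0.671). Arg2 passed in the controls with TMM scaling (-1.76 ± 0.60, FDR 0.00713) and not with the library total (-1.53, FDR 0.0212), while the 4 h difference was -0.45 ± 0.36 by TMM (FDR 0.251) and 0.24 by the library total. Of 7 members tested, 2 were called between the controls, Odc1 and Slc7a2 (23.0% of all genes), or 4 by the FDR alone (65.6%), and 4 at 4 h (28.6%), these being Odc1, Slc7a2, Nos2 and Gch1.

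The difference between both responses at 4 h was tested in a single fit. Odc1 responded more in RAW264.7, by 2.09 ± 0.18 on the log2 scale (FDR 1.78e-16), and Gch1 less, by -1.83 ± 0.26 (FDR 1.65e-08), under the cutoff of 2. For Nos2 the difference was -8.07 ± 5.14 (FDR 0.273), and for Arg2 1.32 ± 0.70 (FDR 0.152) by TMM, and neither passed. DESeq2 gave -7.00 for Nos2 and called it (FDR 0.00133). Odc1 was the 1 member called of 7 tested, where 8.26% of all genes were called, and 2 passed the FDR alone (25.0%). Cell type, medium and the presence of IFN-γ differ together here and cannot be told apart.

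For the other genes of arginine, polyamine, proline, creatine, tetrahydrobiopterin and nitric oxide handling, a list of 60 names was counted whole, of which 56 were in the files. At 4 h of IFN-γ and LPS, 3 were called higher and 3 lower of 35 tested, at 12 h 1 and 4, and at 24 h 1 and 5, while 22.8%, 17.3% and 14.9% of all genes were called at these times. The median log2 fold change of the list was -0.22, -0.14 and 0.24 at these times, beside -0.07, -0.03 and 0.02 over all genes. With IL-4 and with IL-13, 1 of 36 was called (3.86% and 5.36% of all genes), with medians of 0.10 and 0.08 beside -0.01 and -0.01. In RAW264.7 with LPS, 10 of 33 passed the FDR as higher and 4 as lower (27.9% of all genes passed it), and the highest log2 fold change among them, 1.85 for the transporter Slc7a7, was under the cutoff of 2.

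Gatm, which makes the creatine precursor guanidinoacetate from arginine, was the list gene called at every time and with both cytokines. Its mean was 12.2 CPM in the control, 94.3, 59.1, 65.9 and 35.5 CPM at 1, 4, 12 and 24 h, 112 CPM with IL-4 and 129 CPM with IL-13. The log2 fold changes were 3.12 ± 0.18, 2.79 ± 0.19, 2.74 ± 0.18 and 1.75 ± 0.20 in the time course, 3.19 ± 0.17 with IL-4 and 3.36 ± 0.17 with IL-13. In RAW264.7 its mean was 93.2 CPM in the control and 64.8 CPM with LPS (-0.35 ± 0.13, FDR 0.0260). The difference of responses at 4 h was -3.23 ± 0.25 and was called. Gatm was lower after 12 h of IFN-γ and LPS than with IL-4 (-0.41) or IL-13 (-0.60), past the FDR but below the cutoff. Gamt, the other creatine gene of the list, went the other way and was called lower at 12 h (-2.06 ± 0.38, FDR 7.59e-06). At 24 h it passed the FDR below the cutoff (-1.35), and at 1 and 4 h it did not pass. Its mean was 11.8 CPM in the control and 2.22 CPM at 12 h, so few counts bear this fold.

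Times given next are those at which the list genes were called. Slc7a1, the constitutive cationic amino acid transporter, rose at 4 h (2.37 ± 0.18) and was lower at 12 h than at 4 h (-1.68 ± 0.17). Slc3a2, the heavy chain of several amino acid transporters, rose at 4 h (1.78 ± 0.09). At 1, 12 and 24 h both passed the FDR as higher, below the cutoff. The log2 fold changes were 0.95, 0.69 and 1.11 for Slc7a1 and 0.89, 1.38 and 1.04 for Slc3a2. Slc7a1 was 19.5 CPM in the BMDM control, 70.2 CPM at 4 h, and 147 and 139 CPM in RAW264.7 without and with LPS. Among polyamine genes, Sat1, which acetylates spermidine and spermine, fell at 12 h (-2.10 ± 0.12) and 24 h (-2.36 ± 0.12). It was already lower at 1 and 4 h, past the FDR but below the cutoff (-0.70 and -0.65). Paox, a polyamine oxidase, fell at 4 h (-1.50 ± 0.33) and 24 h (-2.05 ± 0.31). At 12 h its value was much the same as at 4 h (-1.496, FDR 2.98e-05) and just under the cutoff. Of nitric oxide synthase partners, Ddah2, which breaks down methylarginine inhibitors of the synthases, fell at 12 h (-2.87 ± 0.51) and 24 h (-3.42 ± 0.51). Nostrin, a binding partner of the endothelial synthase, fell at 4, 12 and 24 h (-2.88 ± 0.43, -3.47 ± 0.43 and -1.88 ± 0.32). At 1 h Ddah2 and Nostrin were already lower, past the FDR but below the cutoff (-1.496 and -1.17). Ddah2 at 4 h did not pass (-0.90, FDR 0.0483). The mean of Ddah2 went from 9.85 CPM in the control to 1.02 and 0.727 CPM at 12 and 24 h. That of Nostrin went from 19.7 CPM to 1.78, 1.37 and 4.55 CPM at 4, 12 and 24 h. These folds therefore rest on few counts in the stimulated libraries.

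Between the control cells, 8 of 36 list genes were called higher and 6 lower in RAW264.7, where 23.0% of all genes were called. Those higher included Srm, the spermidine synthase that acts downstream of Odc1 (3.11 ± 0.15), Eif5a, the protein that carries the spermidine-derived hypusine (2.24 ± 0.09), and Aldh18a1, which makes the proline and ornithine precursor from glutamate (2.61 ± 0.28). Those lower included Sat1 (-2.72 ± 0.13), Paox (-3.51 ± 0.41) and Azin2, an antizyme inhibitor (-4.05 ± 0.93). Azin2 had means of 4.33 CPM in BMDM and 0.229 CPM in RAW264.7 controls and Paox of 20.7 and 2.09 CPM, so these folds rest on few counts in RAW264.7. The median of the list was 0.52 beside -0.06 over all genes. With LPS in RAW264.7, Smox, the spermine oxidase (1.73 ± 0.18), and the transporter Slc7a7 (1.85 ± 0.31) passed the test below the cutoff.

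**Figure D5:**
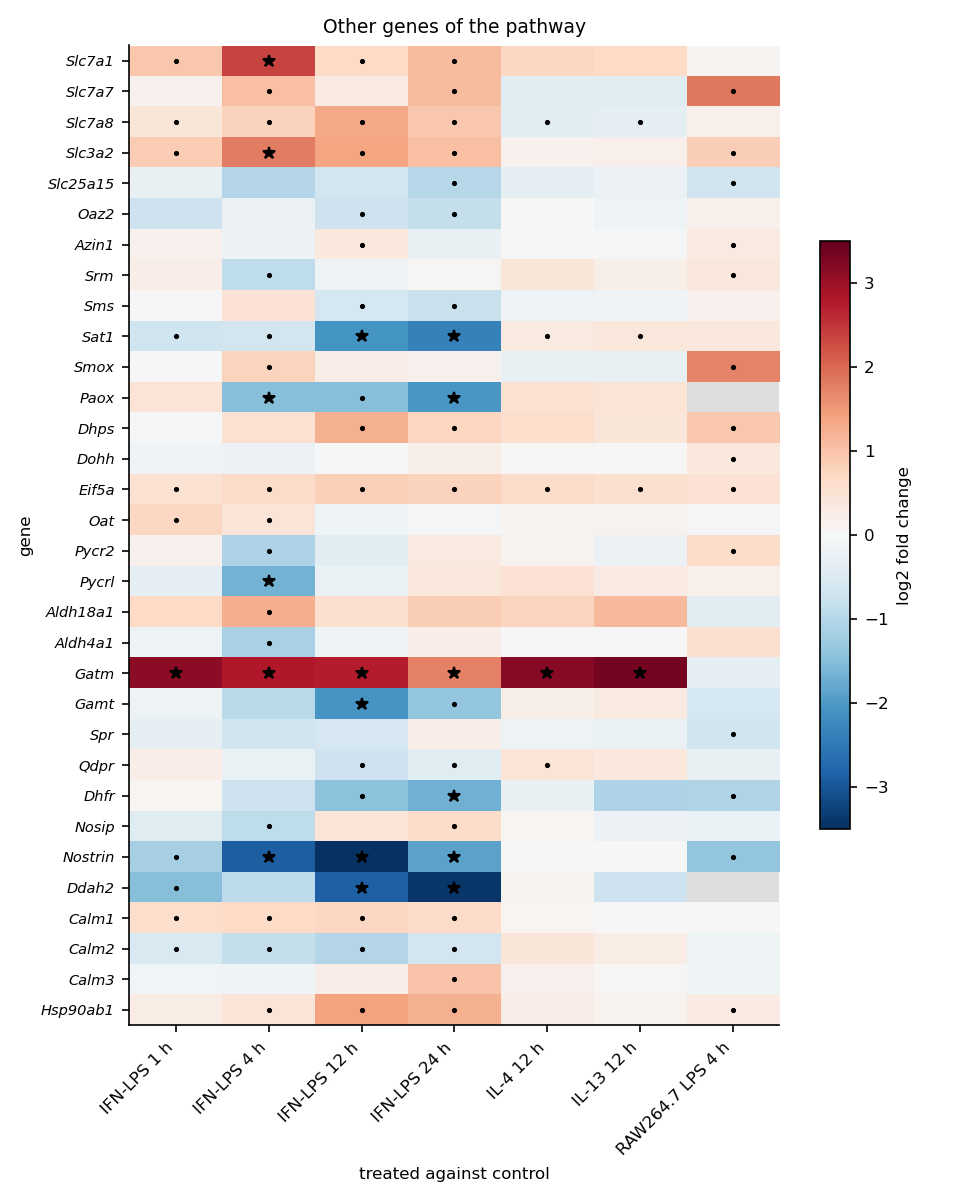
Log2 fold changes of the 32 list genes that passed the FDR in at least 1 of 7 comparisons with control, out of 36 tested (colour from edgeR with TMM scaling, rows are genes, columns are treatments, stars mark calls, dots mark an FDR of at most 0.01 alone, grey was not tested). Gatm is starred in all 6 BMDM columns and not in RAW264.7, and Nostrin, Ddah2 and Sat1 are starred blue at both 12 and 24 h.

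The genes whose log2 CPM over the 21 BMDM libraries correlated most with each member among 9840 genes are given as a description, since the libraries share groups. For Nos2 Parp12 stood first (r = 0.991), for Gch1 these were Il6 (0.992) and Tap1 (0.991), and for Slc7a2 Rasgrp1 (0.971) and Slc31a2 (0.966). For Arg1 they were Ap2m1 (0.977) and Smap2 (0.973), and for Odc1 Clec9a (0.953) and Naaa (0.947). Clec9a had means of 47.7 CPM at 1 h and 0.39 CPM in the control, a time course with its highest mean at 1 h as for Odc1. The best values were lower for Arg2 (Wdr83os, 0.845, and Ralgds, 0.838) and for Asl (A830010M20Rik, 0.809, and Tsg101, 0.807).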

How the data were processed

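RNA-seq of 25 samples was analysed, as 21 BMDM samples (7 groups of 3) and 4 RAW264.7 samples (2 groups of 2), grouped by the GEO labels. Per the submitters' processing notes, the authors used CASAVA 1.8.2, Trimmomatic 0.33, STAR 2.5.1 and DESeq2 on mm10. They deposited 1 file of whole-number read counts per gene and sample, not normalized, with unstranded, antisense and sense columns for 24411 symbols. The annotation release is not given in the sources used here. Lines that name no gene were left out. Reads outside genes on the sense strand made up 62.7% to 69.1% of the uniquely mapped reads. Totals on genes were 2378639 to 3357300, of which Rn45s was removed.

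Members, lists and motifs were chosen with earlier results of these data known. Named are every member, list genes past the cutoffs and, per member, the 2 genes of highest Pearson correlation of log2 CPM (prior count 2) in BMDMs. A gene that this rule names is not reported here. Sense counts were tested with edgeR 4.0.16 in R 4.3.3 (filterByExpr by group, TMM, robust quasi-likelihood fit, 1 mean per group, Benjamini-Hochberg over all genes tested). Standard errors were obtained by dividing each log2 fold change, without its sign, by the square root of its F statistic. The time course (15 samples), IL-4 and IL-13 with the control (9), all BMDMs (21), RAW264.7 (4) and all samples (25) were fitted separately. Folds of CPM use plain CPM, and bounds use a floor of 3 counts over a group. Intervals cover counting error only. The study used independent RNA samples as replicates, and p-values measure the spread between these samples. Replicate pairs differed by 1.30 to 4.53 times the counting variance, so none was a library deposited more than once. Alternatives were DESeq2 1.42.0, RLE or library-total scaling, no filter, unstranded counts, Rn45s kept, the FDR alone, a replicate block, only the groups compared, 24 h in place of 12 h and leaving out each sample. The scripts were tested on simulated data. BMDMs given LPS alone are not analysed here.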

Additional observations from a re-analysis of the deposited data

Results flagged for a closer look

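Between times of IFN-γ and LPS, 9 differences of members passed the test of the difference itself and are listed because effects differed between time points. From 1 to 4 h the log2 fold changes were 8.51 for Nos2, 4.05 for Slc7a2 and 1.93 for Gch1. From 4 to 12 h they were 0.89 for Slc7a2, -0.45 for Gch1 and -0.52 for Odc1, and from 12 to 24 h -2.51 for Nos2, -0.62 for Odc1 and -0.54 for Slc7a2. Slc7a2 thus was still rising when Gch1 and Odc1 were lower, by TMM scaling. The effects of IL-13 and IL-4 differed for Slc7a2 by 0.62. The responses of RAW264.7 and BMDMs at 4 h differed by 2.09 for Odc1 and by -1.83 for Gch1, with stimulus and medium differing too.

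Counts on the opposite strand, which no comparison used, were above those of the control for 5 groups. Slc7a2 had 28 such counts over the 3 libraries at 4 h, 79 at 12 h and 19 at 24 h, or 0.33%, 0.372% and 0.103% of its counts on both strands. Odc1 had 22 in the RAW264.7 LPS libraries, or 0.126%. Over all genes, sense counts were 93.9 to 158 times the antisense counts in a library, so these shares lay below the share over all genes. Arg2 had 17 antisense counts in the RAW264.7 LPS libraries, 8 and 9, against 7 and 4 in the controls, and overlaps Vti1b on that strand. With groups of 2 or 3 samples, no single library was tested as an outlier.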

How the results depend on the processing

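With the FDR alone in place of both cutoffs, 5 members were called at 4 h, 3 from 4 to 12 h, 3 from 12 to 24 h, 1 between IL-13 and IL-4, 4 between the control cell types and 2 for the difference of responses, and DESeq2 also called 2 for that difference. With these settings included, 138 of 145 counts of members called stayed within 1.5 times the value given, and 6 of the 7 others were those by the FDR alone. With a sample left out, 252 of 253 did, the exception being IL-13 against IL-4, which ranged from 0 to 1, and the counts ranged from 2 to 3 at 1 h and from 3 to 4 between the stimulated cell types. Of 901 fold changes under other settings, 864 kept their call without a sign change beyond 1 standard error of 0. Sign changes with both values within 1 standard error of 0 numbered 23, with left-out samples included. Beyond these, the library total changed the sign for Asl at 1 h (-0.15), at 12 h (-0.097), and at 12 h against IL-4 (-0.072) and IL-13 (-0.14). It did so too for Odc1 at 24 h (-0.22) and for Arg2 between the stimulated cell types (0.24). With 24 h in place of 12 h the sign changed for Odc1 against IL-4 (-0.24) and IL-13 (-0.22). In these 8 cases the value followed the scaling or the time used. Among calls, DESeq2 lost Nos2 in RAW264.7 (5.16), and without the filter Odc1 was called at 1 h (1.51), and Slc7a2, which was not tested in RAW264.7 with the filter, was called there. The Gch1 call between the stimulated cell types was lost with DESeq2 and RLE scaling (-1.97), the library total (-1.33), and with Rn45s kept or only the groups compared (-1.96). Of 216 group levels, 82 moved by over 1 SD, 46 of them with Rn45s in the total. Same-numbered replicates deviated together little, with a mean correlation of 0.0215 in the time course and 0.0081 with IL-4 and IL-13. For different numbers it was -0.0108 and -0.0041. In these fits 8 of 15 and 4 of 9 libraries correlated best with their own number. This check is weak, and a pairing by number was neither shown nor excluded. With the replicate block all 16 counts were as given (2, 3, 4 and 3 at 1, 4, 12 and 24 h), and 99 of 100 fold changes kept their call, the exception being Gch1 between the stimulated cell types (-1.98). At this depth Arg1 in the time course, Nos2 in the IL-4 and IL-13 fit and Slc7a2 in RAW264.7 were too low to be tested.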
